A study of Musa acuminata AAA Group with 4 samples.

Results

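Transcript levels were compared between roots of banana plants grown on a low-nitrogen solution and roots of plants grown on complete Hoagland solution. The plants were Cavendish banana, a seedless dessert banana of the AAA Group of Musa acuminata that is propagated as a clone, and they stood in sand until roots were collected after 60 days of treatment. The root comparison used 2 of the 4 libraries, 1 from normal-N root and 1 from low-N root, and took in every gene. The other libraries were from the aboveground part, called leaf here, which held pseudostem as well as leaves, and their values are given beside those of root where they add to a result. The nitrogen content of the low-N solution and the number of plants behind each library are not given in the labels, so a library may be 1 plant or a pool. Because each group was a single library, no test was run, replicate error is unknown, and every difference below is a difference between these libraries. The low-N and normal-N root libraries held 4408992 and 4393407 expected fragments on genes.

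Plant roots take up nitrate with low- and high-affinity transporters, the latter of the NRT2 family working with a partner protein called NAR2. Nitrate is reduced to nitrite by nitrate reductase, which carries a molybdenum cofactor, and nitrite is reduced to ammonium in plastids by nitrite reductase, which carries siroheme and draws electrons from ferredoxin. In root plastids, which lack photosynthesis, that ferredoxin is reduced with NADPH from the oxidative pentose phosphate pathway. Ammonium enters amino acids through glutamine synthetase and glutamate synthase.

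Changes are log2 of (FPKM + 1) in low-N root over (FPKM + 1) in normal-N root, where FPKM is a fragment count corrected for gene length and sequencing depth. The added 1 understates the change of weakly expressed genes. Genes with a change of 1 or more, or of -1 or less, were called higher or lower by size, provided that either root library reached 2 FPKM (the filter). Where a pair of FPKM values is given, the normal-N library comes before the low-N library. Folds are ratios of expected counts scaled by library totals, with an exact 95% interval in parentheses that covers counting error only.

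Of 24476 genes with at least 2 FPKM in either root library, 1144 (4.67%) were higher and 1690 (6.9%) lower by size in low-N root. The median change over all of them was -0.01, and the middle 50% of genes lay between -0.36 and 0.32. The called genes were mostly of low level. Among genes with a root mean under 5 FPKM, 10.1% were higher and 12.5% lower, against 2.86% and 4.95% of genes with a mean of at least 100 FPKM. Genes with a leaf mean under 1 FPKM made up 46.9% of the higher genes and 41.2% of the lower genes, against 18.2% of all genes at the filter.

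**Figure D1:**
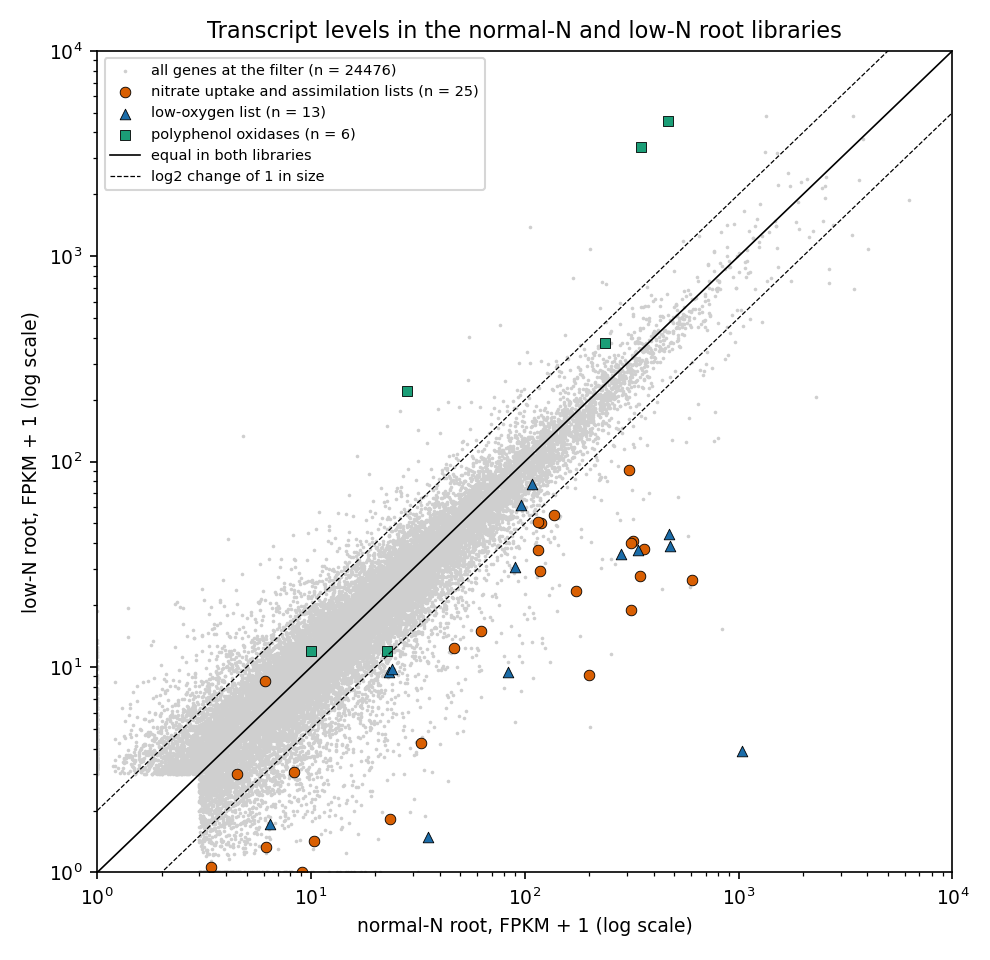
FPKM + 1 in low-N root (vertical axis) against normal-N root (horizontal axis), both on log scales, 1 point per gene and 1 library per axis. Points below the lower dashed line are lower by size in low-N root: nitrate uptake and assimilation genes (orange) and low-oxygen genes (blue) lie mostly there, down to 2.89 FPKM for non-symbiotic hemoglobin 2 (Ma02_g10610), while 3 polyphenol oxidases (green) lie above the upper dashed line, up to 4527 FPKM (Ma08_g09160).

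Gene names were available only for genes in the authors' filtered tables of the root and leaf comparisons, so the named genes had been picked for change in these same libraries. Of the 2429 genes with an informative description at the filter, 377 (15.5%) were higher and 641 (26.4%) lower in root, and these shares are the background for the gene lists below. Genes described only because they were in the leaf table were rarely called in root, 17 of 1373 (1.24%) higher and 30 (2.18%) lower. A list's share of called genes therefore depends on how many of its members came from the root table. In some lists every member at the filter did. These were nitrate and nitrite reductase (4), glutamine synthetase and glutamate synthase (5), LOB factors (6) and dirigent proteins (8). For such lists a high share of called genes, though not its direction, largely followed from the picking. The background of all described genes is no measure of that share. Gene lists were drawn by words in the descriptions, and their counts are descriptions of picked genes. Of the 57 lists, 41 had members in both directions, 14 had members lower and none higher, and 2 had members higher and none lower. In whole roots, fewer cells of a type and less RNA per cell cannot be told apart.

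The tissue label was checked against shoot and root markers. RuBisCO fixes carbon in photosynthesis, and a gene for its small chain (Ma02_g24600) was at 60.6 and 57.5 FPKM in root and 47042 and 19671 FPKM in leaf. A root-type ferredoxin (Ma09_g30430) was at 605 and 25.6 FPKM in root and 10.5 and 12.3 FPKM in leaf. Of 39 photosystem, antenna and RuBisCO genes, 13 were at 0 in root under normal N and 11 under low N. The 11 genes at the root filter summed to 317 and 185 FPKM in root. All 39 genes summed to 58498 and 24110.2 FPKM in leaf. The most abundant of these genes in root was a different RuBisCO small chain gene (Ma07_g15870), at 224 and 81.5 FPKM in root and 1.89 and 0.95 FPKM in leaf.

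Genes of nitrate reduction and of the electron supply to nitrite reductase were lower in low-N root. All 4 genes described as nitrate or nitrite reductase were lower by size, with a median log2 change of -3.46. Adding KEGG text to the descriptions gave 6 members, 5 lower and none higher, with a median of -2.77. Nitrate reductase Ma09_g14900, the most abundant of 3 nitrate reductase genes, was at 314 and 17.9 FPKM. The other nitrate reductase genes were at 9.33 and 0.42 FPKM (Ma03_g07170) and 5.16 and 0.33 FPKM (Ma05_g05570). In leaf the same 3 genes were at 1052 and 906 FPKM (Ma09_g14900), 15.7 and 31.9 FPKM (Ma03_g07170) and 13.1 and 11.1 FPKM (Ma05_g05570), and the reductase list had no leaf member higher or lower by size.

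The list of ferredoxin and reductant genes had 7 of 7 members lower at the filter, and 1 of them is nitrite reductase itself (Ma09_g14720, 199 and 8.11 FPKM). The root ferredoxin (Ma09_g30430), the electron donor type of non-green plastids, was 23.7-fold lower (17.8 to 32.2) in low-N root, and nitrite reductase 24.6-fold lower (19.2 to 32.1), so that their intervals overlapped. Both forms of ferredoxin-NADP reductase, the enzyme that passes electrons from NADPH to ferredoxin, were lower. The root isozyme (Ma04_g34890) was at 318 and 40.0 FPKM, or 7.98-fold lower (6.89 to 9.29), and the embryo isozyme (Ma04_g38200) at 305 and 90.1 FPKM, or 3.39-fold lower (3.05 to 3.77). The plastid NADPH supply was lower at both of its described steps. Plastid glucose-6-phosphate dehydrogenase (Ma06_g18080), the entry enzyme of the oxidative pentose phosphate pathway, was at 114 and 36.0 FPKM, and 6-phosphogluconate dehydrogenase (Ma03_g17510), its next NADPH-forming enzyme, was at 119 and 49.2 FPKM. In leaf those 2 dehydrogenase genes were at 7.27 and 12.3 FPKM and 17.2 and 19.8 FPKM, and neither was called by size.

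Genes of the cofactors were lower as well, for 4 of 5 members at the filter, with a median of -2.01. Adding KEGG text gave 6 members, 4 lower and 1 higher. Uroporphyrinogen-III C-methyltransferase (Ma06_g28880), which commits the tetrapyrrole precursor to siroheme, was at 45.8 and 11.3 FPKM, or 4.05-fold lower (3.05 to 5.45). All 3 molybdate transporters were lower. Molybdate transporter 2 (Ma06_g03340) was at 116 and 28.2 FPKM, and the molybdate transporter 1 genes were at 22.4 and 0.82 FPKM (Ma03_g28120) and at 8.03 and 0 FPKM (Ma03_g14710), the latter at least 16.4-fold lower. Uroporphyrinogen-III synthase (Ma02_g09590), an earlier step shared with heme and chlorophyll, was at 3.53 and 2.02 FPKM, within the size limit.

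Glutamine synthetase and glutamate synthase were lower for 5 of 5 genes, with changes from -3.26 to -1.19. The glutamine synthetase genes spanned the cytosolic and plastid forms. The nodule-type isozyme (Ma01_g15700) was at 360.1 and 36.7 FPKM, or 9.82-fold lower (8.40 to 11.5), the plastid leaf isozyme (Ma09_g16600) at 61.0 and 13.9 FPKM, or 4.42-fold lower (3.45 to 5.72), and cytosolic isozyme 2 (Ma08_g31320) at 136 and 53.7 FPKM, or 2.53-fold lower (2.19 to 2.94). NADH-dependent glutamate synthase, the form typical of roots, was measured from 2 genes. The less abundant one (Ma08_g28590), near 0 in leaf at 0.04 and 0.07 FPKM, was at 31.7 and 3.27 FPKM in root, 9.69-fold lower (7.86 to 12.1). The more abundant one (Ma07_g25920) was at 115 and 49.8 FPKM.

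**Figure D2:**
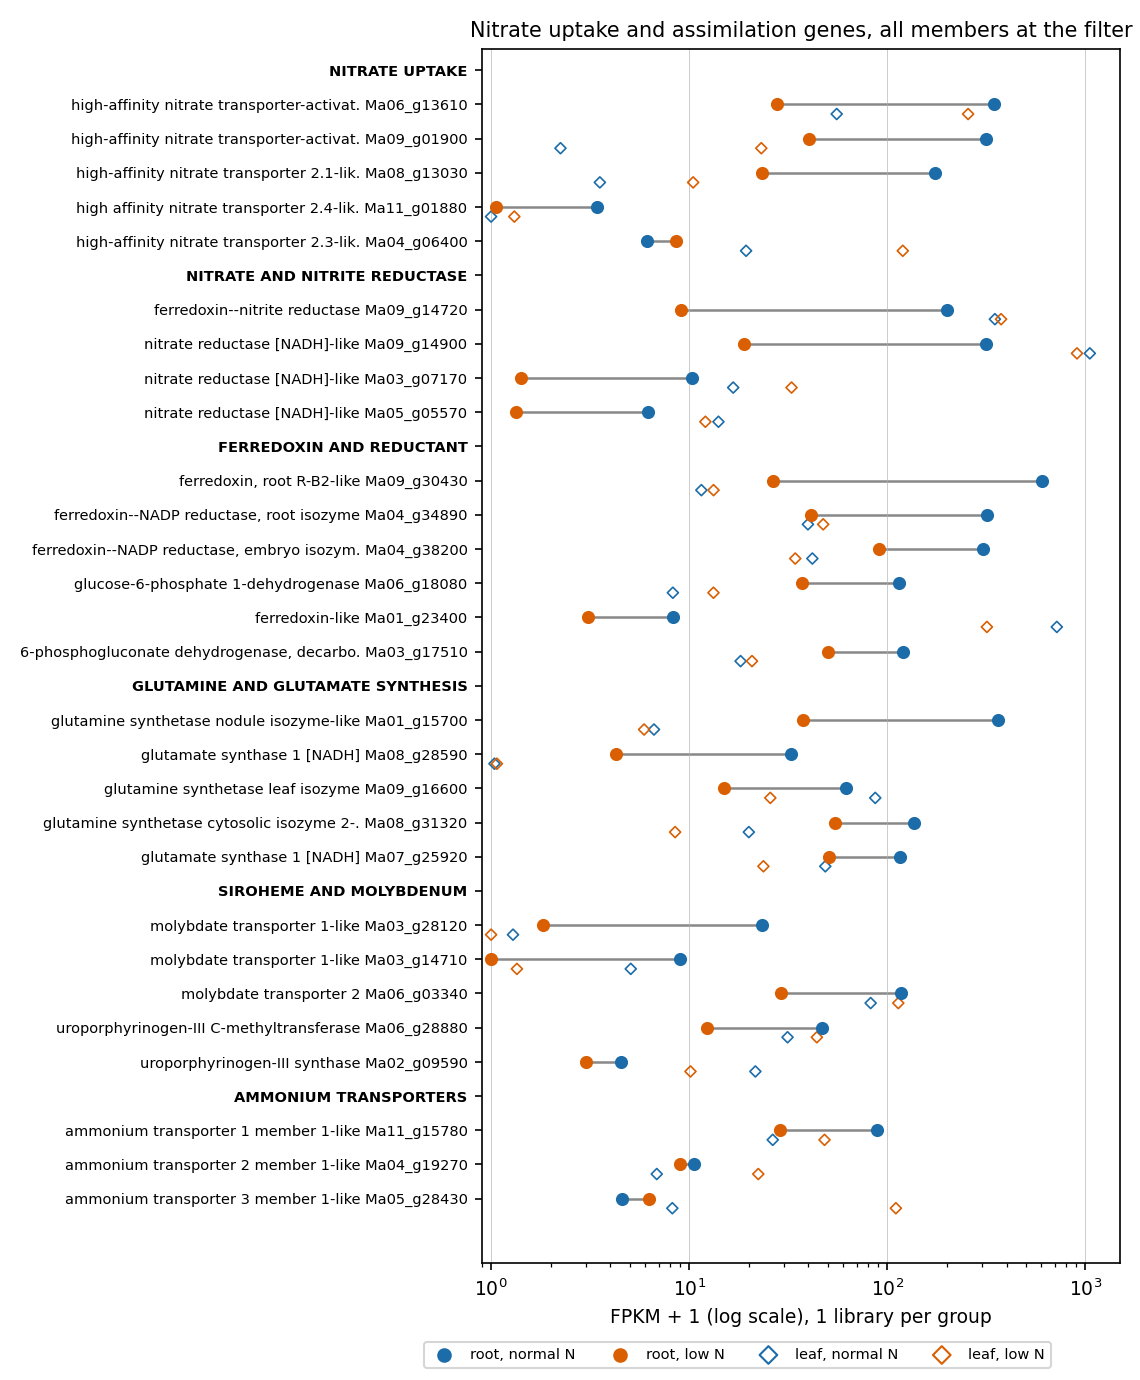
FPKM + 1 on a log scale (horizontal axis) for every member at the filter of the nitrate uptake, reduction, reductant, glutamine and glutamate, cofactor and ammonium transporter lists (rows), with 1 library per symbol: filled circles for root and open diamonds for leaf, blue for normal N and orange for low N. In root the orange circle lies left of the blue circle for every gene but 2, the NRT2.3-like gene (Ma04_g06400, 5.10 and 7.57 FPKM) and an ammonium transporter 3 gene (Ma05_g28430, 3.57 and 5.27 FPKM), and leaf diamonds often lie in the other order.

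High-affinity nitrate uptake genes were lower for 4 of 5 members. The summed level of the 5 genes was 838 and 95.7 FPKM, against 76.7 and 405 FPKM in leaf, so that the tissue with the larger sum was root under normal N and leaf under low N. Both NAR2-type partner genes carried most of the root sum, at 343 and 26.7 FPKM (Ma06_g13610) and 314 and 39.1 FPKM (Ma09_g01900). NRT2.4-like (Ma11_g01880) was near the filter, at 2.42 and 0.06 FPKM. NRT2.3-like (Ma04_g06400) was within the size limit in root and at 18.4 and 119 FPKM in leaf.

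Other nitrate and ammonium carriers differed less. Of 8 NPF genes, the family of low-affinity nitrate and peptide carriers, 3 were lower and none higher, with a median of -0.58, beside the 26.4% of described genes that were lower. Described through the leaf table only were 4 of those 8, 2 of the 3 ammonium transporters and 1 of the 5 high-affinity uptake genes. The smaller differences here therefore depend in part on how the genes were picked. The 2 genes of the NPF6.3 type, named after the Arabidopsis nitrate transceptor, were at 6.37 and 1.99 FPKM (Ma08_g10980) and 6.64 and 9.03 FPKM (Ma08_g10970), and only the former was called. The most abundant NPF gene in root (NPF4.4-like, Ma08_g08150) was at 82.4 and 39.6 FPKM, or 2.09-fold lower (1.82 to 2.40). Of 3 ammonium transporters, the root's most abundant one (AMT1.1-like, Ma11_g15780) was at 88.2 and 27.6 FPKM and the others were within the size limit. Anion channels of the CLC family, of which CLC-a loads nitrate into the vacuole in Arabidopsis, were lower for all 3 genes at the filter: CLC-a-like (Ma03_g17470) was at 11.2 and 2.51 FPKM, CLC-g-like (Ma01_g20040) at 8.15 and 1.30 FPKM and CLC-c (Ma03_g22750) at 6.95 and 2.66 FPKM. An SLAH2-like gene (Ma05_g06600), of a family of anion channels that in Arabidopsis includes a nitrate channel, was higher, at 7.02 and 22.9 FPKM, or 3.25-fold higher (2.41 to 4.44).

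Regulators linked to nitrate in Arabidopsis were among the called genes. LOB domain factors, a plant-specific family whose members LBD37 to LBD39 repress nitrate genes in Arabidopsis, were lower for 6 of 6 genes, from -3.64 to -1.15. Only LBD37-like (Ma04_g14140), at 26.4 and 3.56 FPKM, carries a name of the LBD37 to LBD39 group. The others were named LBD29, LBD40 or LBD41, with LBD40-like (Ma09_g00580) at 16.7 and 1.98 FPKM. Both ends of the range were LBD41-like genes (Ma04_g06820 and Ma04_g03810). A BTB and TAZ domain protein 1-like gene (Ma10_g03840), of a family that responds to nitrate in Arabidopsis, was at 29.4 and 1.28 FPKM, or 23.1-fold lower (10.3 to 64.0). NLP1-like genes, of the family that includes the nitrate-sensing factor NLP7 of Arabidopsis, were higher for 2 of 3 genes, at 7.99 and 18.9 FPKM (Ma03_g15290) and 3.48 and 9.19 FPKM (Ma05_g21510), and the remaining one was at 2.79 and 5.17 FPKM (Ma11_g20740). The search words for that list also caught 5 mavicyanin, chemocyanin and phylloplanin genes, which are no NIN-like proteins.

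Genes of low-oxygen metabolism stood with the nitrogen genes at the low end. When oxygen is short, plant roots keep glycolysis running by fermenting pyruvate to ethanol with pyruvate decarboxylase and alcohol dehydrogenase, draw sugar in through sucrose synthase, and make class 1 hemoglobin, which scavenges nitric oxide. Of 13 members, 11 were lower and none higher, with a median log2 change of -2.99, and their summed level was 3064 and 349 FPKM. With KEGG text added to the descriptions the list had 14 members, 11 lower and 1 higher. In leaf the median of the list was -0.04 over 9 members.

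Non-symbiotic hemoglobin 2-like (Ma02_g10610) had the most negative change of any gene at the filter. It was at 1039 and 2.89 FPKM in root, 361-fold lower (166 to 985), and at 0.51 and 1.54 FPKM in leaf. Non-symbiotic hemoglobin 1-like (Ma04_g34700) was at 82.2 and 8.49 FPKM, or 9.70-fold lower (5.96 to 16.8), and a two-on-two hemoglobin 3 (Ma07_g09620) at 23.0 and 8.73 FPKM. The intervals of hemoglobin 1 and hemoglobin 2 did not overlap.

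All 3 alcohol dehydrogenase genes were among the abundant root transcripts under normal N and were lower under low N. They were at 476 and 38.0 FPKM (Ma02_g09950), 471 and 43.2 FPKM (Ma06_g19900) and 281 and 34.7 FPKM (Ma08_g29910), or 12.5-fold lower (10.8 to 14.6), or 10.9-fold lower (9.52 to 12.6) and 8.14-fold lower (6.95 to 9.58). Pyruvate decarboxylase was lower for 4 of 5 genes. The largest change was that of Ma11_g23090, at 34.2 and 0.49 FPKM, or 69.7-fold lower (26.9 to 258), and the most abundant lower gene was Ma04_g16540, at 89.3 and 29.6 FPKM. Ma11_g23090 shares its length and description with Ma05_g30490, and reads could have been split between them. Pyruvate decarboxylase 2 (Ma05_g07150), the most abundant of the 5, had a log2 change of -0.64, within the size limit. Sucrose synthase also had a called and an uncalled gene, with sucrose synthase 1-like (Ma07_g21330) at 338 and 36.0 FPKM, or 9.43-fold lower (8.50 to 10.5), and sucrose synthase 2-like (Ma03_g01820) at 107 and 77.1 FPKM.

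Genes outside that list but known from low-oxygen responses were looked up after the values were seen. All 5 genes described as 2-aminoethanethiol dioxygenase, the description that plant cysteine oxidases carry, were lower. Plant cysteine oxidases mark group VII ERF factors for breakdown in the presence of oxygen in Arabidopsis. Their summed level was 195 and 40.1 FPKM, and the most abundant (Ma08_g02960) was at 101 and 16.2 FPKM, or 6.26-fold lower (4.74 to 8.39). ERF071-like genes, named after a group VII factor of Arabidopsis, were at 51.0 and 4.67 FPKM (Ma11_g14400) and 17.3 and 2.53 FPKM (Ma03_g08080). LBD41-like (Ma04_g06820), also counted above among the LOB factors, was at 94.5 and 6.66 FPKM, or 14.2-fold lower (9.47 to 22.3). It is named after a factor induced by low oxygen in Arabidopsis. Pyruvate, phosphate dikinase (Ma02_g03830), which links pyruvate and phosphoenolpyruvate, was at 82.5 and 9.58 FPKM, or 8.64-fold lower (7.11 to 10.6). An L-lactate dehydrogenase gene (Ma07_g06760) was at 30.5 and 5.93 FPKM and the more abundant one (Ma01_g13550), of equal length and description, at 228 and 141 FPKM.

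Glycolytic genes were lower by smaller amounts. Of 14 members of the glycolysis and TCA cycle list at the filter, 8 were lower and none higher, and with KEGG text added 12 of 20 were lower and 2 higher. ATP-dependent phosphofructokinase 6-like (Ma04_g24700), the committing step of glycolysis, was at 76.7 and 13.6 FPKM, or 5.66-fold lower (4.56 to 7.09). An enolase (Ma01_g03570) was at 680.4 and 262 FPKM, and the other enolase (Ma05_g21200), the most abundant member, was at 790.4 and 675 FPKM. All 3 cytosolic pyruvate kinase genes were lower, from -1.51 to -1.09. A cytosolic fructose-bisphosphate aldolase (Ma08_g08700) was at 362 and 161 FPKM. The list also caught a methylthioribulose phosphate dehydratase-enolase gene (Ma06_g22100), which belongs to methionine salvage.

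Ethylene synthesis genes were split by step. ACC synthase makes the precursor ACC, and ACC oxidase turns it into ethylene in a reaction that needs oxygen. Of 6 ACC oxidase genes, 4 were lower and 1 higher, with a summed level of 457 and 62.8 FPKM. ACC oxidase Ma05_g09360 was at 201 and 4.10 FPKM, or 49.2-fold lower (30.1 to 86.5), and Ma06_g02600 at 130.3 and 9.59 FPKM, or 13.6-fold lower (9.74 to 19.6). The higher ACC oxidase gene (Ma06_g14420) and both ACC synthase genes were at low levels: the oxidase at 0.42 and 5.35 FPKM, ACC synthase 1 (Ma01_g07800) at 0.98 and 9.18 FPKM and ACC synthase 3-like (Ma02_g10500) at 1.62 and 13.1 FPKM. EIN3-like 1 (Ma10_g12970), a central transcription factor of the ethylene response, was at 389 and 387 FPKM.

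**Figure D3:**
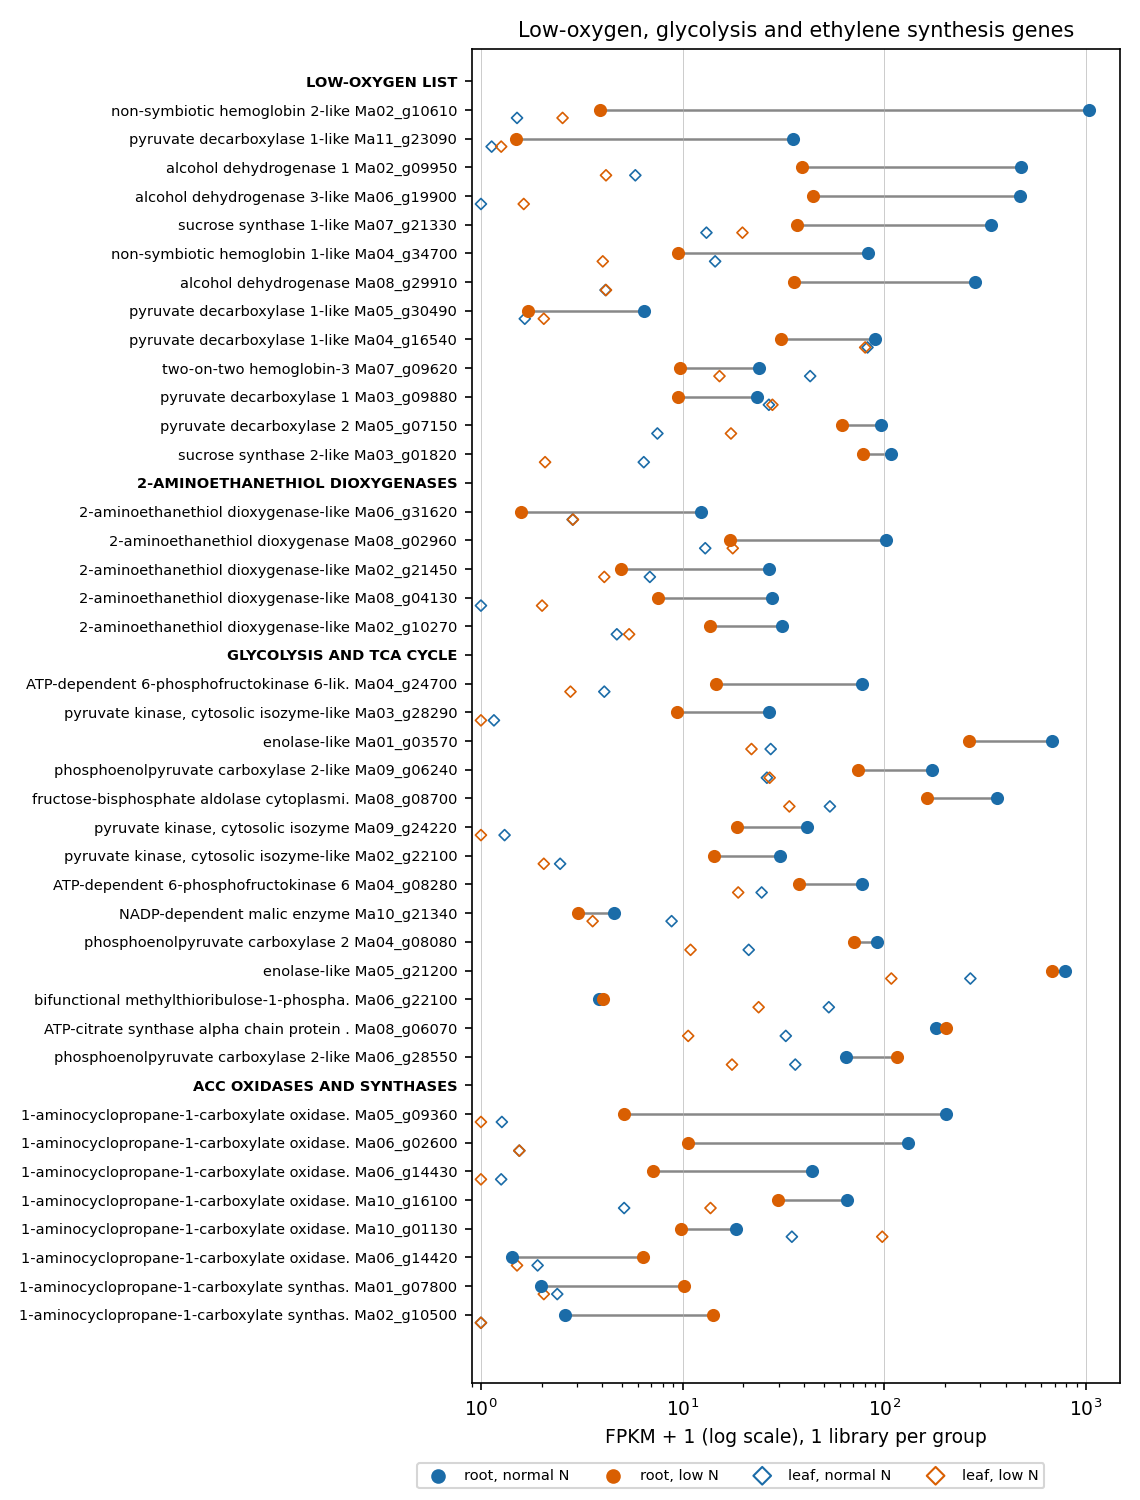
FPKM + 1 on a log scale (horizontal axis) for the low-oxygen list, the genes described as 2-aminoethanethiol dioxygenase, the glycolysis and TCA cycle list and the ACC oxidase and synthase genes (rows), 1 library per symbol: circles for root, diamonds for leaf, blue for normal N and orange for low N. The low-N circle lies left of the normal-N circle for every low-oxygen gene, farthest for hemoglobin 2 (Ma02_g10610, 1039 and 2.89 FPKM), and right of it for both ACC synthases and 1 ACC oxidase.

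Genes of the secondary wall, the thick lignified wall of xylem vessels and fibres, were mostly lower. Of 18 members 10 were lower and 4 higher, and the 4 higher ones were all fasciclin-like arabinogalactan proteins. All 4 cellulose synthase A genes of the list were lower: a CesA7 gene (Ma05_g15620) at 78.7 and 6.90 FPKM, CesA9 (Ma07_g20880) at 93.4 and 13.3 FPKM, and the CesA4 genes at 61.5 and 6.12 FPKM (Ma09_g05430) and 40.6 and 9.10 FPKM (Ma06_g33500). Glucuronoxylan 4-O-methyltransferase 3-like (Ma09_g07740), which decorates the xylan of the secondary wall, was at 93.3 and 10.3 FPKM, or 9.06-fold lower (6.47 to 13.0). COBRA-like 4 (Ma04_g14410), linked to secondary wall cellulose in Arabidopsis and rice, was at 44.3 and 5.78 FPKM, or 7.77-fold lower (5.45 to 11.4). The 3 NAC43-like genes, named after a master switch of secondary walls in Arabidopsis, were lower as well, at 10.2 and 1.52 FPKM (Ma07_g06080), 14.7 and 2.97 FPKM (Ma09_g24910) and 17.9 and 4.13 FPKM (Ma03_g11950).

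Fasciclin-like proteins, wall glycoproteins, went both ways by name. The 2 lower genes, FLA11 (Ma05_g30650, 261 and 118 FPKM) and FLA12 (Ma06_g34630, 150.1 and 34.5 FPKM), carry the names of the fasciclin-like proteins that mark xylem in Arabidopsis. The 4 higher genes were FLA9 (Ma02_g10950, 15.5 and 105 FPKM), FLA13 (Ma10_g15240, 127 and 297 FPKM), FLA2 (Ma09_g19980, 81.9 and 185 FPKM) and FLA8 (Ma11_g02980, 140.2 and 293 FPKM). Laccases, copper enzymes that polymerise lignin, were split in the same manner. All 5 laccase-4 and laccase-22 genes were lower, with a summed level of 168 and 26.3 FPKM. All 3 laccase-3 genes were higher, summing to 14.8 and 60.1 FPKM, and laccase-24-like (Ma06_g35830) was at 1.98 and 7.11 FPKM. Grouping by name was done after the values were seen.

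The general phenylpropanoid pathway, which feeds lignin, was lower at several steps and not throughout. Of 24 members of the phenylpropanoid and lignin list, 10 were lower and 5 higher, with a median of -0.37. With KEGG text added 20 of 37 were lower and 5 higher, with a median of -1.15. The most abundant member, 4-coumarate-CoA ligase-like 10 (Ma07_g18310), was at 474.5 and 379 FPKM, within the size limit. Cinnamate 4-hydroxylase, described as CYP73A or trans-cinnamate 4-monooxygenase, was lower for 3 of 4 genes, with Ma03_g05380 at 124 and 11.4 FPKM, or 10.9-fold lower (8.40 to 14.3), and the uncalled Ma06_g10250 at 186 and 177 FPKM. Hydroxycinnamoyltransferase, which joins the precursor to shikimate, had a lower gene (Ma07_g05000, 34.3 and 3.90 FPKM) and a higher one (Ma03_g13540, 2.34 and 17.1 FPKM). Caffeoylshikimate esterase (Ma06_g36310) was at 17.9 and 2.23 FPKM, cinnamyl alcohol dehydrogenase 2-like (Ma04_g06170) at 71.7 and 21.8 FPKM, and the ferulate 5-hydroxylase type P450 84A1 (Ma11_g15990) at 119.8 and 29.7 FPKM. Dirigent proteins, which steer the coupling of lignin and lignan precursors, were lower for 7 of 8 genes, among them dirigent protein 21-like (Ma11_g09770) at 33.0 and 0.89 FPKM, or 37.1-fold lower (9.92 to 312), while dirigent 23-like (Ma03_g22920) was higher, at 21.1 and 59.7 FPKM.

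Genes of the root's diffusion barriers were more often higher than lower. The Casparian strip seals the endodermis with lignin and suberin lamellae coat its cells. Of 39 members of that list 15 were higher and 8 lower, with a median of 0.49, while the summed level was 2269 and 1839 FPKM. Casparian strip membrane and CASP-like genes were higher for 3 of 6, with CASP-like Ma07_g08000 at 13.6 and 54.5 FPKM, or 3.99-fold higher (2.70 to 6.03), and a Casparian strip membrane protein gene (Ma08_g07640) at 3.75 and 16.9 FPKM. CYP86A1 (Ma06_g35740), the fatty acid omega-hydroxylase of root suberin in Arabidopsis, was at 6.17 and 29.9 FPKM, or 4.83-fold higher (3.50 to 6.79). Feruloyl transferases of suberin type went both ways, with Ma10_g17010 at 22.1 and 58.5 FPKM, Ma10_g29130 at 3.38 and 9.93 FPKM and Ma03_g07940 at 50.5 and 12.9 FPKM. MYB39-like (Ma05_g19630), named after a suberin regulator of the Arabidopsis endodermis, was at 2.83 and 11.3 FPKM, or 3.99-fold higher (2.03 to 8.56). The other gene described as MYB39, the more abundant, was at 10.8 and 17.3 FPKM, within the size limit. DIR1-type lipid-transfer proteins, which summed to 1369 and 439 FPKM, were lower for 3 of 4, led by Ma04_g16130 at 749.7 and 285 FPKM, while non-specific lipid-transfer proteins were higher for 5 of 7.

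**Figure D4:**
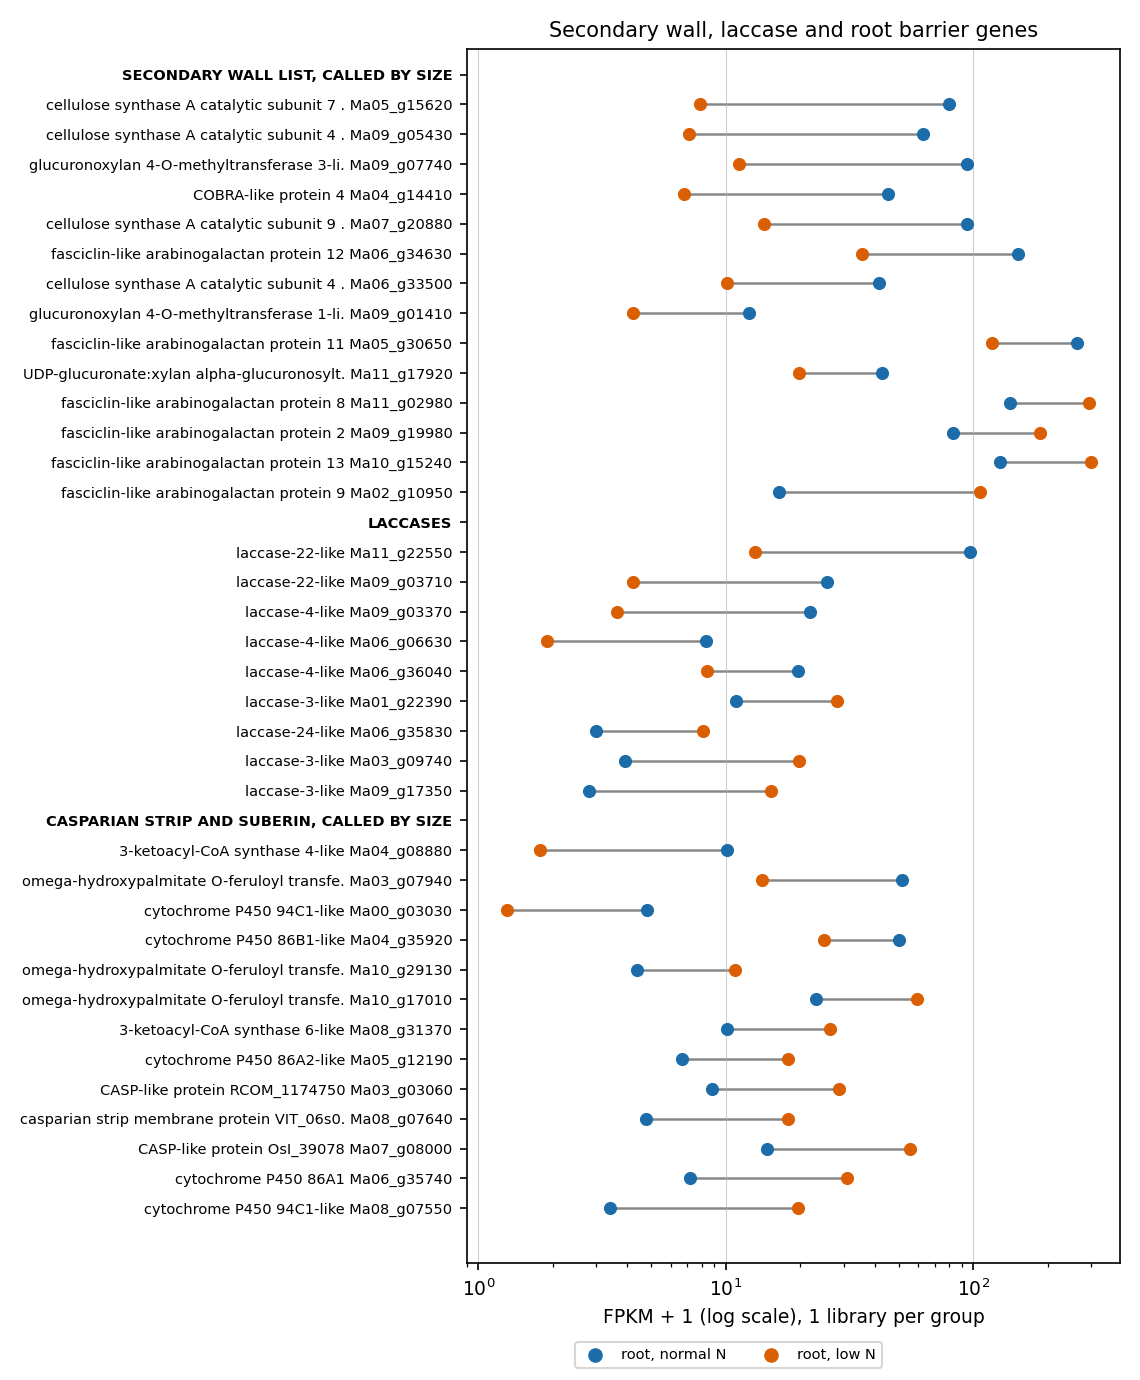
FPKM + 1 on a log scale (horizontal axis) in normal-N root (blue) and low-N root (orange), 1 library each, for the called members of the secondary wall list, all laccases at the filter and the called Casparian strip and suberin genes without lipid-transfer proteins (rows). Cellulose synthases, xylan genes and laccase-4 and laccase-22 lie lower under low N (CesA7 Ma05_g15620, 78.7 and 6.90 FPKM), and laccase-3 and CASP-like genes lie higher, as does CYP86A1 (Ma06_g35740, 6.17 and 29.9 FPKM).

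Genes that loosen and extend primary walls also split by family. Xyloglucan endotransglucosylases, which cut and rejoin xyloglucan, were higher for 9 of 16 genes and lower for 1, with summed levels of 926 and 1952 FPKM. The most abundant (Ma07_g02600) was at 229 and 749 FPKM, or 3.26-fold higher (3.03 to 3.52). Expansins, which loosen walls without cutting them, were lower for 6 of 8 genes and higher for 1. Expansin-A9-like Ma04_g34580 was at 109.8 and 16.2 FPKM, with 2 further expansin-A9 genes of equal length and description, and the higher one, expansin-A11-like (Ma02_g05480), was at 6.25 and 32.7 FPKM. Leucine-rich repeat extensins, wall proteins that bind signalling peptides, were higher for 6 of 8 genes, with Ma07_g01410 at 30.5 and 142 FPKM, or 4.65-fold higher (3.92 to 5.54). Those 8, with sums of 477 and 1065 FPKM, leave out a pollen-specific leucine-rich repeat extensin-like gene (Ma06_g27060). It was at 796 and 130 FPKM, or 6.15-fold lower (5.57 to 6.80). The whole list of extensins and arabinogalactan proteins had 10 of 26 higher and 11 lower, with sums of 3002 and 2390 FPKM. That near-even split depended on the list definition. With KEGG text added the list had 19 members, 4 higher and 10 lower, and its median was -1.18 in place of 0.01. The 2 trichome birefringence-like 19 genes, of a family that acetylates wall polysaccharides, were at 25.1 and 176 FPKM (Ma04_g06240) and 3.74 and 27.5 FPKM (Ma04_g06220), while ESKIMO 1-like (Ma08_g21920), named after a xylan acetyltransferase of Arabidopsis, was at 35.7 and 2.08 FPKM, or 17.2-fold lower (10.1 to 31.9).

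Class III peroxidases, secreted enzymes that crosslink or loosen walls, were called in nearly equal numbers. Of 36 members 17 were lower and 14 higher, so 31 of 36 passed the size limit. However, 32 of the 36 were in the authors' filtered root table and so had been picked for change in these libraries. The summed level was 5016 and 3102 FPKM. Among the lower genes, cationic peroxidase SPC4-like (Ma03_g02760) was at 1052 and 456 FPKM and peroxidase 60-like (Ma02_g06740) at 764 and 124 FPKM. Among the higher genes, peroxidase 21 (Ma10_g05350) was at 53.7 and 403 FPKM and peroxidase P7-like Ma02_g17270, with the most positive change of any gene at the filter, at 3.82 and 132 FPKM, or 34.4-fold higher (21.0 to 60.7). The neighbouring gene ID Ma02_g17250, also P7-like, was at 702 and 299 FPKM, so that P7-like genes differed in opposite directions. Several P7-like genes share their length and description, and reads could have been split between them. In leaf 11 genes of the list were at the filter.

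Genes of secreted defence proteins were lower more often than higher. Pathogenesis-related and chitinase genes were lower for 24 of 40 members and higher for 4, with a median of -1.39. Pathogenesis-related protein 1 genes, secreted proteins that mark defence responses, were lower for 7 of 8, with a summed level of 1636 and 477 FPKM. Genes described as chitinase or chitinase-like were lower for 9 of 11, with chitinase-like 1 (Ma08_g24190) at 107 and 12.3 FPKM. Whether the chitinase-like genes cut chitin or act in defence is not given by their descriptions. The most abundant of the 11, another chitinase-like 1 gene (Ma07_g22290), was at 949.6 and 1435 FPKM, within the size limit. It made up most of their sum of 1589 and 1749 FPKM. Outside that list, hevamine-A-like (Ma08_g33260), of a family of chitinases with lysozyme activity, was at 105 and 1389 FPKM, and at 2.12 and 0.28 FPKM in leaf. The other gene described as hevamine was lower, at 10.4 and 2.47 FPKM in root. Ribonuclease 3-like (Ma04_g08930), a ribonuclease that the search words placed in the defence list, was at 1347 and 4788 FPKM, or 3.55-fold higher (3.43 to 3.67), the second largest gain in FPKM of any gene. The summed level of the whole list was 8299.7 and 10792 FPKM, higher under low N although most members were lower, and the gain of the ribonuclease gene alone exceeded that difference. Disease resistance receptors, which detect pathogens inside the cell, were mostly within the size limit, with 3 of 24 lower and 1 higher. Of those 24, 20 were described through the leaf table only.

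Mannose/glucose-specific lectins, sugar-binding storage and defence proteins, held the gene with the largest loss in FPKM. The 5 genes summed to 15087 and 4176 FPKM. The most abundant (Ma09_g10440) was at 6270.1 and 1869 FPKM, or 3.36-fold lower (3.16 to 3.58). Ma09_g10450, Ma09_g10460 and Ma09_g10470, with consecutive IDs and the same length and description, were at 2657 and 868 FPKM, 3459 and 692 FPKM and 2652 and 742 FPKM, and counts could have been shared between them. A horcolin-like gene (Ma10_g09820), also named after a mannose-binding lectin, was at 590.4 and 23.6 FPKM in root and at 0 in both leaf libraries. All 4 GOS9-like and both salt stress-induced protein-like genes, whose function is not established here, were lower, with salt stress-induced Ma10_g09830 at 834 and 14.3 FPKM, or 58.4-fold lower (40.0 to 88.9).

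Polyphenol oxidases, copper enzymes that brown wounded tissue, held the gene with the largest gain in FPKM. Genes Ma08_g09160 and Ma08_g09150 were at 468 and 4527 FPKM and 348 and 3391 FPKM, the latter 9.73-fold higher (9.36 to 10.1), and the next ID, Ma08_g09170, was at 27.1 and 218 FPKM. The other 3 polyphenol oxidase genes were within the size limit: Ma10_g20510 was at 237 and 375 FPKM, Ma08_g34740, which shares its length and description with Ma08_g09150, with a log2 change of -0.92, and Ma07_g03540 at 9.04 and 10.9 FPKM. In leaf the 3 consecutive genes were at 9.27 and 0.84 FPKM, 25.6 and 0.71 FPKM and 4.58 and 0.18 FPKM, lower under low N. Lipoxygenases, which start the synthesis of oxylipins, were lower for 4 of 13 genes and higher for none. Linoleate 9S-lipoxygenase 6-like Ma06_g26890 was at 958 and 380.2 FPKM, and its copy of equal length and description, Ma06_g26850, at 319.6 and 120.3 FPKM.

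Proteases had the only list median above 1. Of 26 members 13 were higher and 4 lower, with a median of 1.01 and summed levels of 819 and 1339 FPKM. Aspartic proteinases were higher for 7 of 12, among them the most abundant, ASPARTIC PROTEASE IN GUARD CELL 2-like Ma08_g09390, at 118 and 309 FPKM. All 3 serine carboxypeptidases were higher, at 11.8 and 28.2 FPKM (Ma04_g36370), 5.87 and 17.8 FPKM (Ma08_g21870) and 2.61 and 9.95 FPKM (Ma09_g20490). Subtilisins, another serine protease family, had 2 higher and 3 lower among 9. Xylem cysteine proteinase 1-like (Ma03_g03550), an enzyme of vessel cell death in Arabidopsis, was higher, at 3.85 and 11.7 FPKM. Protease inhibitors were lower for 5 of 9, with all 3 cysteine proteinase inhibitors lower, led by Ma11_g18530 at 133 and 23.3 FPKM, or 5.73-fold lower (3.82 to 8.90). The most abundant inhibitor, a Bowman-Birk type gene (Ma05_g10670), was at 3440.4 and 4826 FPKM, within the size limit.

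Genes that move and break down amino acids were split. Alanine aminotransferase, which stores fermentation carbon as alanine and is used in nitrogen transfer, was lower for both genes, at 112 and 39.7 FPKM (Ma11_g08770) and 105 and 49.5 FPKM (Ma02_g09230). Glutamate decarboxylase 4-like (Ma08_g31180), which makes GABA, was at 30.8 and 8.29 FPKM. Primary amine oxidases, which release ammonium and hydrogen peroxide from amines, were higher for 3 of 5 genes. Ma01_g13020 was at 0 and 12.1 FPKM in root, at least 39.2-fold higher, and at 8.94 and 263 FPKM in leaf. Amino acid permease 4-like (Ma02_g13200) was at 83.0 and 30.3 FPKM, and cationic amino acid transporter 5-like (Ma07_g13810) at 2.41 and 10.8 FPKM.

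Genes of other mineral nutrients were more often lower than higher. Of 21 metal genes 12 were lower and 1 higher. Metallothioneins, small cysteine-rich metal binders, were the most abundant, with type 3 (Ma03_g16510) at 4017 and 1085 FPKM and type 2A (Ma01_g10480) at 3399 and 1268 FPKM, while another (Ma06_g27920) was higher, at 101 and 339 FPKM. Zinc transporter 1 (Ma07_g14980) was at 47.3 and 3.75 FPKM, or 12.6-fold lower (7.71 to 22.1), and all 3 copper transporters were lower. For iron, a ferric-chelate reductase gene (Ma03_g32800), the step that makes iron soluble at the root surface, was at 27.4 and 5.03 FPKM and nicotianamine synthase 3-like (Ma11_g19090), which makes a metal chelator, at 144 and 52.0 FPKM.

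Phosphate and sulfate genes were lower for some members and within the limit for most. Of 16 phosphate genes 5 were lower and none higher, and 11 of the 16 were described through the leaf table only. Phosphate transporter 1-3 (Ma05_g15460) was at 17.8 and 4.44 FPKM, the far more abundant 1-8 (Ma04_g36790) at 232 and 193 FPKM, and SPX domain protein 5-like (Ma01_g15270), of a family of phosphate sensors, at 21.1 and 3.71 FPKM. PHR1-LIKE 1 (Ma11_g02420), named for its likeness to the phosphate regulator PHR1 of Arabidopsis, was at 30.1 and 6.90 FPKM. Of the sulfur genes, sulfate transporter 3.1-like Ma03_g15840 was at 32.6 and 2.14 FPKM, or 15.3-fold lower (9.60 to 25.7), another of the same name (Ma01_g20480) was higher, at 3.88 and 10.9 FPKM, and cysteine synthase (Ma04_g27940), which fixes sulfide into cysteine, was at 143 and 24.0 FPKM, or 5.99-fold lower (4.86 to 7.46). A vacuolar cation/proton exchanger 1a-like gene (Ma04_g06610), which loads calcium and other cations into the vacuole, was at 141 and 17.7 FPKM, or 7.97-fold lower (6.53 to 9.82). A sodium and potassium carrier of the HKT2 type (Ma06_g32660) was at 263 and 30.7 FPKM, or 8.58-fold lower (7.46 to 9.91), and near 0 in leaf. Plasma membrane proton pumps, which energise uptake, had Ma05_g25120 at 268 and 55.2 FPKM, Ma01_g00990 at 193 and 86.5 FPKM and Ma04_g12650 at 10.7 and 32.7 FPKM. The genes Ma05_g25120 and Ma01_g00990 share their length and description.

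Water channels of the same class differed in direction. The tonoplast aquaporin TIP2-1 (Ma11_g19380) was at 75.1 and 460.4 FPKM, or 6.12-fold higher (5.34 to 7.04), and its copy of equal length and description (Ma11_g04350) at 46.6 and 103 FPKM. The TIP2-2 genes, the more abundant under normal N, were at 388 and 322 FPKM (Ma06_g07460) and 212 and 95.1 FPKM (Ma10_g22190). In the plasma membrane, PIP2-5 (Ma02_g00190) was at 136 and 41.5 FPKM and PIP1-1-like (Ma08_g11300) at 3.45 and 22.8 FPKM.

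Among hormone genes, the gibberellin list had 2 members higher and none lower, and both were gibberellin-regulated cell wall peptides. With KEGG text added that list had 29 members, 3 higher and 2 lower, with a median of 0.05. Gibberellin-regulated protein 6-like (Ma07_g19330) was at 200.1 and 1088 FPKM, or 5.42-fold higher (4.76 to 6.20), and was almost absent in leaf at 1.58 and 3.98 FPKM. Abscisic acid genes were lower for 11 of 25 and higher for 2. All 4 PYL receptors were lower, at 40.7 and 18.6 FPKM (PYL8-like, Ma04_g08530), 14.2 and 3.34 FPKM (PYL2-like, Ma10_g27910), and 10.9 and 2.20 FPKM and 9.37 and 1.49 FPKM for the PYL4-like genes Ma10_g05210 and Ma05_g31850. Type-A response regulators of cytokinin, which respond to the hormone and dampen it, were lower for 3 of 4, with ARR9-like (Ma05_g07940) at 36.6 and 11.7 FPKM. A cytokinin-activating LOG-type gene (Ma01_g22180, 2.75 and 20.3 FPKM) and a cytokinin dehydrogenase 3-like gene that breaks the hormone down (Ma05_g21640, 2.88 and 25.4 FPKM) were both higher, while a further cytokinin dehydrogenase 3 gene (Ma07_g02230) was at 12.9 and 4.24 FPKM. Auxin genes were 6 higher and 5 lower of 22, with the repressor IAA30-like (Ma04_g29070) at 42.5 and 195 FPKM.

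Strigolactone genes were looked up after a member appeared among the most positive changes. Strigolactones are carotenoid-derived hormones that roots release to attract mycorrhizal fungi, and that restrain branching. CCD8 (Ma02_g11250), a carotenoid cleavage step of their synthesis, was at 1.32 and 19.4 FPKM, or 14.6-fold higher (7.74 to 31.2), and CYP711A1 (Ma10_g21230), the following oxidase named after MAX1 of Arabidopsis, at 19.2 and 39.9 FPKM, or 2.07-fold higher (1.68 to 2.56). NSP2 (Ma08_g16560), a factor needed for strigolactone synthesis and symbiosis in legumes, was at 1.13 and 5.22 FPKM, or 4.61-fold higher (2.11 to 11.5). All 3 genes were at or near 0 in leaf.

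Most members of the WRKY, NAC and AP2/ERF transcription factor families were within the size limit, and most MYB and bHLH members were called. WRKY factors, a family of stress and defence regulators, had 12 of 47 lower and 1 higher, and 35 of the 47 were described only because they were in the leaf table. NAC factors had 10 of 30 lower and 1 higher, and MYB factors 10 of 29 lower and 7 higher. The bHLH factors had 8 of 21 lower and 5 higher, and AP2/ERF factors 10 of 46 lower and 7 higher. Shares were near the background of described genes in both directions for AP2/ERF and in the lower direction for WRKY. Described through the leaf table only were 20 of the 30 NAC, 29 of the 46 AP2/ERF, 13 of the 29 MYB and 7 of the 21 bHLH genes. Among the higher factors, bHLH18-like (Ma03_g16110) was at 9.90 and 55.6 FPKM, or 5.61-fold higher (4.04 to 7.95), ERF038-like (Ma08_g19170) at 4.75 and 30.9 FPKM and HOX21-like (Ma01_g05860) at 2.34 and 11.7 FPKM. All 3 knotted-1-like homeobox genes, a class active in meristems, were lower, from -2.02 to -1.01.

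The ribosome and translation list had 1 of 23 lower and none higher, with a median of -0.34, and 20 of the 23 were described through the leaf table only. With KEGG text added to the descriptions that list had 52 members, 6 higher and 6 lower. Cell cycle and histone genes were higher for 11 of 38 and lower for 5, with cyclin-D1-2-like (Ma09_g28820), a cyclin of entry into division, at 4.76 and 20.0 FPKM, cyclin-P2-1-like (Ma04_g31150) at 18.2 and 52.9 FPKM and the cytokinesis kinesin NACK2-like (Ma07_g05890) at 6.48 and 24.6 FPKM. All 5 class I and class V small heat shock protein genes, a type of chaperone, were lower, led by an 18.1 kDa class I gene (Ma01_g14490) at 577 and 42.3 FPKM in root, 13.7-fold lower (10.9 to 17.3), and 471 and 57.1 FPKM in leaf. Lea5-D (Ma06_g21680), a late embryogenesis abundant protein, was among the 5 largest losses of FPKM, at 2305 and 206 FPKM, or 11.2-fold lower (9.85 to 12.8).

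**Figure D5:**
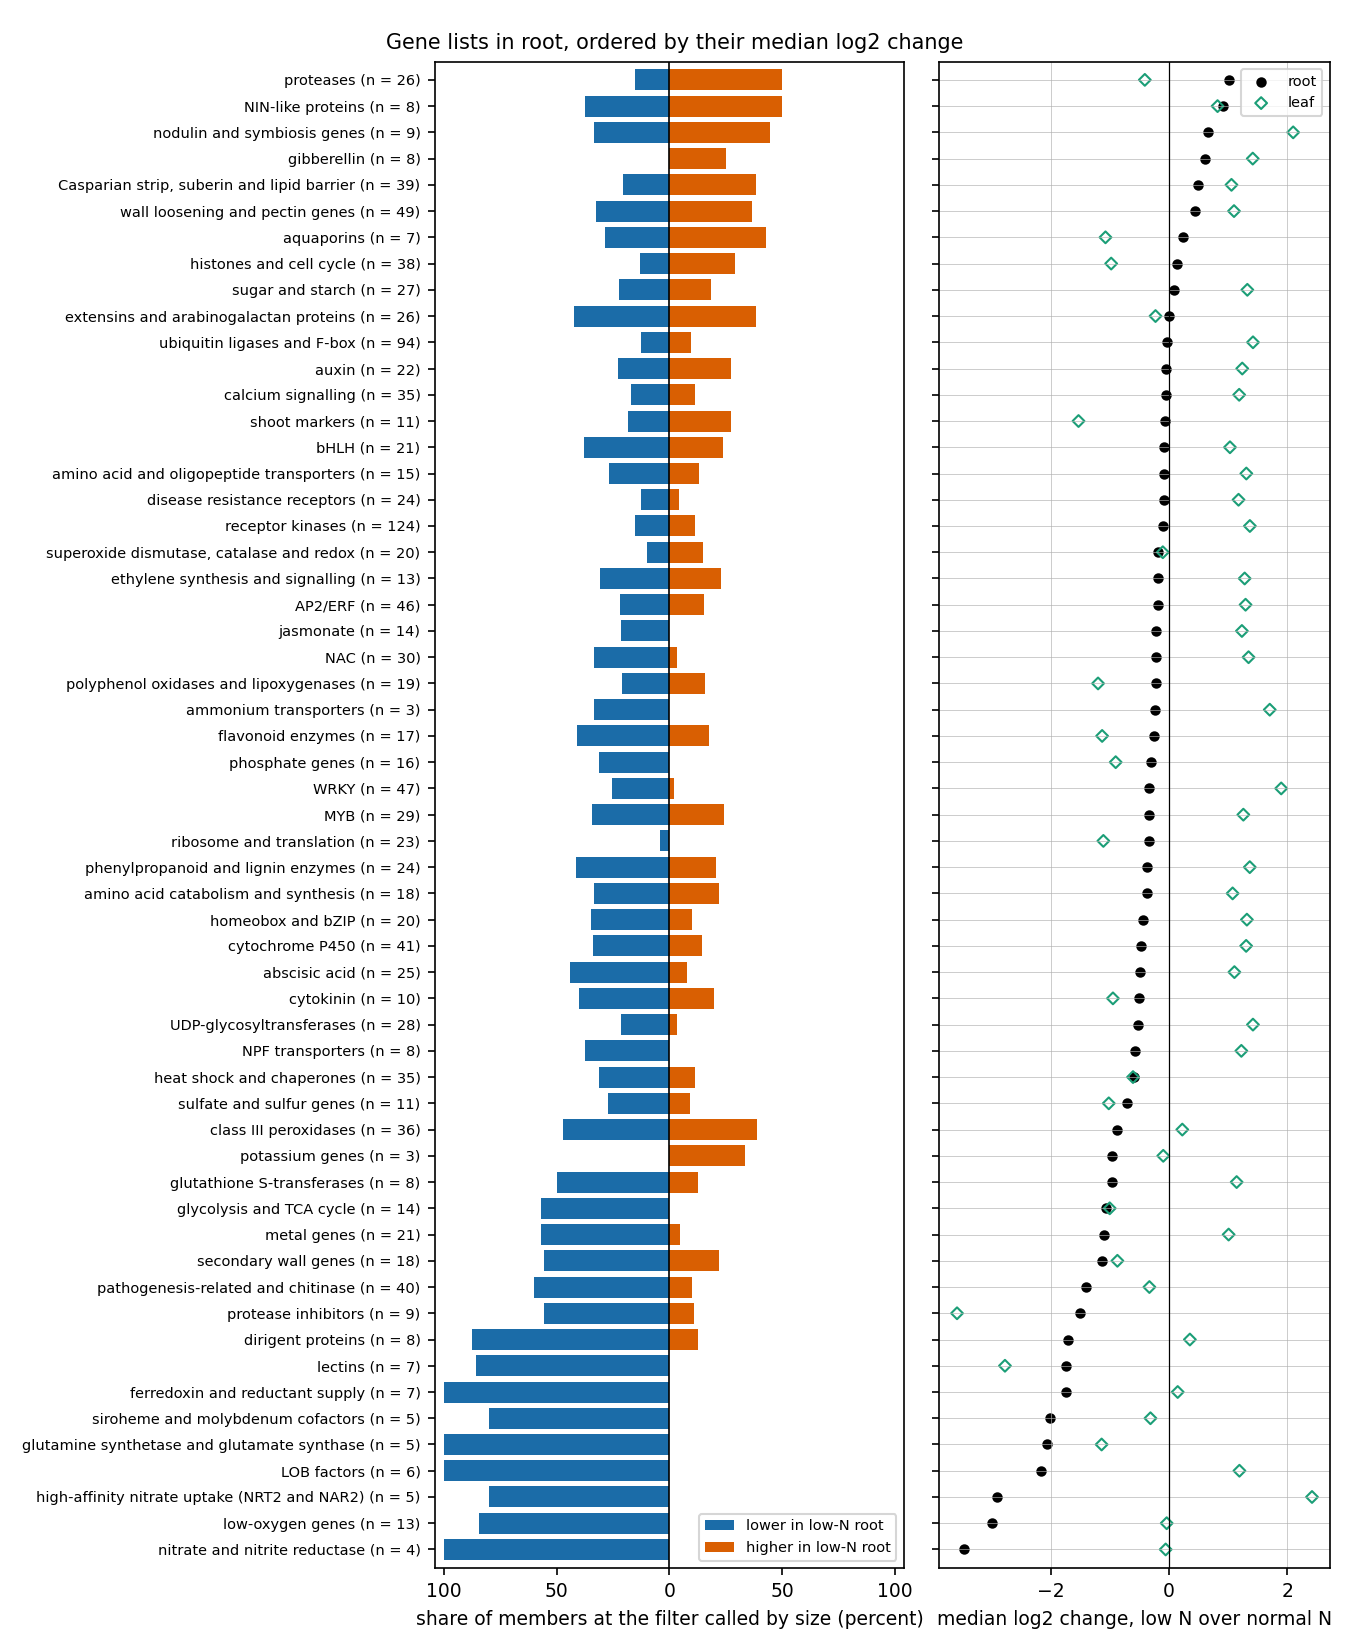
Left, the share of each list's members at the filter (percent) that were higher (orange, to the right) or lower (blue, to the left) by size in low-N root. Right, the median log2 change of each list in root (black) and leaf (green diamonds). Lists are ordered by their root median, from proteases at 1.01 to nitrate and nitrite reductase at -3.46, and 14 of 57 lists had a median of -1 or lower against 1 list of 1 or higher.

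Flavonoid enzyme genes were lower for 7 of 17 and higher for 3. Both chalcone synthase genes, the entry to the pathway, were higher, at 24.1 and 73.4 FPKM (Ma10_g12390) and 42.2 and 89.7 FPKM (Ma06_g12370), and they share their length and description. A leucoanthocyanidin dioxygenase-like gene (Ma05_g03850), named after the enzyme that forms anthocyanidins, was also higher, at 138 and 306 FPKM. Flavanone 3-hydroxylase-type genes were lower, with Ma04_g23390 at 13.0 and 0.67 FPKM and Ma11_g22170 at 12.8 and 0.63 FPKM. All 4 flavone O-methyltransferase 1-like genes were lower, and Ma03_g28520, the most abundant, was at 316 and 71.7 FPKM, or 4.42-fold lower (3.93 to 4.98). UDP-glycosyltransferases, which attach sugars to such compounds, had 6 of 28 lower and 1 higher, a share of lower genes below the described background. Of those 28, 21 were described only because they were in the leaf table. Glutathione S-transferases, which conjugate reactive compounds, had 4 of 8 lower and 1 higher.

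Sugar genes held members in both directions. SWEET4-like Ma08_g25780, of a family of sugar pores in the plasma membrane, was at 79.0 and 10.3 FPKM, or 7.67-fold lower (5.35 to 11.3), while another SWEET4-like gene (Ma07_g14600) was higher, at 6.12 and 17.5 FPKM. A cytosolic invertase of the CINV2 type (Ma02_g03720), which splits sucrose by the route alternative to sucrose synthase, was at 8.02 and 26.1 FPKM, or 3.23-fold higher (2.48 to 4.23). Alpha-amylase 2 (Ma04_g21990), a starch-cutting enzyme, had a log2 change of 1.53. The list's median was 0.08 in root and 1.32 in leaf.

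Redox and signalling genes were mostly within the size limit. Of the redox genes 15 of 20, and of the calcium signalling genes 26 of 35, were described through the leaf table only. A Cu-Zn superoxide dismutase (Ma10_g07820), which turns superoxide into hydrogen peroxide, was higher, at 20.3 and 73.1 FPKM, and so was it in leaf, at 31.3 and 191 FPKM. Ascorbate peroxidase 6 (Ma10_g16080) was at 108 and 43.9 FPKM. Of 35 calcium signalling genes 6 were lower and 4 higher, among them the calmodulin-like gene CML38 (Ma05_g26840), a calcium-binding protein known from low-oxygen responses in Arabidopsis, at 97.6 and 17.1 FPKM, or 5.73-fold lower (3.59 to 9.60). CIPK23-like (Ma04_g29510), named after the Arabidopsis kinase that acts on the nitrate transceptor and on ammonium and potassium transporters, was at 24.9 and 10.6 FPKM. A more abundant CIPK23-like gene (Ma04_g38110) was at 174 and 126 FPKM, within the size limit. Jasmonate repressors of the TIFY family, which are themselves induced by jasmonate, were lower for 3 of 8, with Ma03_g05850 at 111 and 44.8 FPKM. Receptor kinases had 19 of 124 lower and 14 higher, both shares below those of all described genes. However, 82 of the 124 were described only because they were in the leaf table.

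Early nodulin-like 1 genes, copper-protein relatives anchored at the cell surface, were higher for 3 of 5, with Ma11_g20130 at 1.51 and 18.5 FPKM, or 12.2-fold higher (4.48 to 46.6). Early nodulin-93-like (Ma06_g06180) was at 48.4 and 4.77 FPKM, or 10.2-fold lower (4.43 to 28.9). A rice gene of that name is known to respond to nitrogen supply. Alpha carbonic anhydrase 7-like (Ma08_g12300), which interconverts carbon dioxide and bicarbonate, was at 252 and 10.6 FPKM, or 24.1-fold lower (17.4 to 34.3), and its copy of equal length and description (Ma08_g13000) was at 227 and 29.4 FPKM. The remaining alpha carbonic anhydrase gene was higher, with 6.24 FPKM in normal-N root and a log2 change of 1.07.

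Some of the largest changes rested on few counts or on genes with no described function. Glu S.griseus protease inhibitor-like (Ma04_g13620) was at 0 and 17.6 FPKM on 14 counts, and squalene epoxidase 3-like (Ma08_g04880), a sterol synthesis enzyme, at 0 and 11.2 FPKM on 18 counts, although it was at 89.9 and 73.5 FPKM in leaf. WD repeat protein 76 (Ma01_g14260) was at 30.5 and 0 FPKM on 15 counts and was also at 32.3 and 0 FPKM in leaf. Of genes without a description, Ma04_g29690 was at 20.0 and 0 FPKM and Ma01_g02930 at 0.40 and 18.4 FPKM, and both were at 0 in both leaf libraries. Ma06_g23010 was at 16.9 and 0 FPKM and Ma06_g00040 at 0 and 12.6 FPKM, on 3 and 8 counts.

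Genes called in root were called in leaf in both directions. Over 19179 genes at the filter in both tissues, 890 were lower in root, of which 158 (17.8%) were also lower in leaf and 163 (18.3%) higher in leaf. Of the 555 genes higher in root, 120 (21.6%) were higher and 80 (14.4%) lower in leaf. Of all the genes at both filters, 10.8% were higher and 5.61% lower in leaf, beside 11.7% and 6.7% of the 21715 genes at the leaf filter alone. Root and leaf share no library, but each contrast is 1 library against 1 library, and the difference between tissues was not tested.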

How the data were processed

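Poly(A) RNA from 4 samples, 1 library each from normal-N root, low-N root, normal-N leaf and low-N leaf, had been sequenced after priming with random hexamers, per the labels' protocols, and no strand-marking step is described, so reads of overlapping genes on opposite strands cannot be told apart. BWA and Bowtie are named in the submitters' processing notes without role or version. The aligner, the counter, the genome build and the annotation are, in the sources used here, not given. The deposited tables give for each gene an expected count, which is an estimate and need not be whole, per the file headers. They also give FPKM, computed by the authors from those counts and a length per gene, per the file headers, and 93.6% of the lengths are multiples of 3, so they appear to be coding lengths. A gene missing from a library's table was set to 0.

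Descriptions came from the authors' deposited tables of filtered genes, whose ratios, P-values and FDRs were not used. The members and the gene lists were chosen with earlier results of these data known. Changes were log2 of (FPKM + 1) ratios with a filter of 2 FPKM in the higher root library and a size limit of 1. Folds compare rounded expected counts relative to the library totals, and their 95% intervals (exact, Clopper-Pearson) cover counting error, and a floor of 3 counts where a library had 0. Root depth was 4393407 and 4408992 fragments, which leaves weakly expressed genes imprecise. Named genes were the 12 most positive and 12 most negative described genes with at least 10 FPKM, up to 3 members per list and direction with at least 5 FPKM, the most abundant member of each list, every nitrogen-list member at the filter, the 2 shoot markers highest in root, and the 2 most positive and 2 most negative undescribed genes. Other genes and all subfamilies in the text were chosen after their values were seen. The calling was tested on simulated data. Python 3.11.15, numpy 2.4.6, pandas 2.3.3, scipy 1.17.1 and matplotlib 3.10.9 were used.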

Additional observations from a re-analysis of the deposited data

Results flagged for a closer look

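These results were in opposite directions in root and leaf. Each tissue had 1 library per group, so the difference between tissues was not tested. The median log2 change of the high-affinity nitrate uptake list was -2.90 in root and 2.42 in leaf. That of the metal gene list was -1.10 in root and 1.01 in leaf.

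Among nitrogen carriers, both NAR2-type genes had log2 changes of -3.64 in root and 2.20 in leaf (Ma06_g13610) and of -2.98 in root and 3.37 in leaf (Ma09_g01900). NRT2.1-like (Ma08_g13030) was at -2.90 in root and 1.56 in leaf, and NPF4.6-like (Ma07_g08710) at -1.13 in root and 1.25 in leaf. Outside the carriers, the transcription factor LOB domain-containing protein 41-like (Ma04_g03810) was at -1.15 in root and 1.72 in leaf.

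In the other direction, the polyphenol oxidase genes had log2 changes of 3.28 in root and -3.96 in leaf (Ma08_g09150), 3.27 and -2.48 (Ma08_g09160), and 2.97 and -2.24 (Ma08_g09170). Their leaf levels were at most 25.6 FPKM. Hevamine-A-like (Ma08_g33260) was at 3.72 in root and -1.29 in leaf, where it had at most 2.12 FPKM.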

How the results depend on the processing

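The counts of 1144 higher and 1690 lower genes came to 341 and 680 with a pseudocount of 5 FPKM, to 491 and 852 with a filter of 10 FPKM, and to 185 and 393 with a size limit of 2. Each of these alternatives is stricter by construction. A pseudocount of 0.1 FPKM gave 1556 and 2134, and no filter gave 1430 and 2020. Scaling by the median ratio or by the upper quartile of expected counts gave 1156 and 1681 in both cases. Scaling by total FPKM shifted the median change of all genes by 0.08 and gave 1397 and 1516, so that higher genes were 48.0% of the calls instead of 40.4%. With a pseudocount of 5 FPKM the change of 126 named genes lay outside the counting interval of its fold, or moved by at least 0.1 where a library had 0 counts, and that of 203 did not. Under total FPKM scaling it was 22 genes.

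Of the list counts, 85 of 114 moved by over 1.5 times at a size limit of 2, 39 with a pseudocount of 5 FPKM, and 12 when KEGG text was added to the descriptions. No paired analysis was possible because each group had 1 library. With 1 library per group, plant-to-plant variation is unknown, the intervals cover counting error only, and genes with few counts are the least certain.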
